A study of Mus musculus with 20 samples.

Results

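Total histone H3 was profiled by chromatin immunoprecipitation and sequencing (ChIP-seq) in mouse embryonic fibroblasts (MEFs), and the regions called in wild-type (WT) cells were compared with those called in cells of Pml-null mice (KO). All regions listed for H3 on chromosomes 1 to 19 and X were taken, 513 in WT and 495 in KO, which made 1008 of the 120433 regions in the 12 ChIP lists of the series. Neither H3 list held a region on Y. Both genotypes were on the C57BL/6 background, at passages 10 to 15, proliferating and untreated, and the same anti-H3 antibody (Abcam ab1791) was used in both. The protocol names untransfected cells for the H3K9me3, H3K27me3 and PML libraries and cells transfected with a plasmid for H3.3-Flag and H3.3-HA, and does not say which of these served for H3. Each target had 1 library per genotype, so every difference given here lies between 2 single libraries and has no replicate check.

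H3 is a core histone of nearly every nucleosome, and an antibody against total H3 is meant to read nucleosomes irrespective of their H3 variant or modification. The variant H3.3 is deposited outside replication by the HIRA complex, mainly at active genes, and by DAXX with ATRX at repeats, and PML bodies concentrate H3.3 with these chaperones. H3K9me3 marks constitutive heterochromatin, and H3K27me3 is the mark of Polycomb repression.

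The lists also cover the other targets, and 4 tables give RNA as FPKM, a level corrected for transcript length and for the number of mapped fragments: 1 pair of tables pooled by the authors from 3 numbered samples per genotype and 1 pair from an unnumbered sample per genotype. PML regions numbered 484 in WT and 35 in KO, of which 22 lay on Y. Of 10 fibroblast markers, 9 were at 1 FPKM or more in both numbered tables and all 10 in both unnumbered tables. Of 7 macrophage markers with values, 7 were at 1 FPKM or more in the unnumbered WT table, 2 in the unnumbered KO table and 0 in the numbered tables, with summed levels of 156, 11.4, 1.22 and 0.956 FPKM in the unnumbered WT, unnumbered KO, numbered WT and numbered KO tables. The depth behind each list is unknown, since no read total was available for it here.

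H3 regions were too long to print, and 4 promoters inside them are shown as examples of genes that lay in H3 regions of 1 genotype alone. Each run is 300 bases from RefSeq on GRCm38.p6 (the assembly of mm10), from 250 bases before to 50 after an annotated gene start, 5′ to 3′ along the gene, with every CG dinucleotide in capitals. Jun (chr4:95052173-95052472, minus strand) and Fos (chr12:85473640-85473939, plus strand) lay in H3 regions in KO and in none in WT. Hs3st4 (chr7:123982578-123982877, plus strand) and Olfr1342 (chr4:118690401-118690700, minus strand) lay in H3 regions in WT and in none in KO. The start used for Olfr1342 is an internal one, and its run lies inside the annotated gene span, chr4:118689152-118693034. They were chosen after their values were seen.
Jun: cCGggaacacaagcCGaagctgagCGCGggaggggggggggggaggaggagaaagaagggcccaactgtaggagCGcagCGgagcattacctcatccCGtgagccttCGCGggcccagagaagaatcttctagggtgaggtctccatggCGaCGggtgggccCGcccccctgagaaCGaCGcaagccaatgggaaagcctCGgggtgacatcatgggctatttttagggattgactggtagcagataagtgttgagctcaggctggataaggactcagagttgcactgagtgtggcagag
Fos: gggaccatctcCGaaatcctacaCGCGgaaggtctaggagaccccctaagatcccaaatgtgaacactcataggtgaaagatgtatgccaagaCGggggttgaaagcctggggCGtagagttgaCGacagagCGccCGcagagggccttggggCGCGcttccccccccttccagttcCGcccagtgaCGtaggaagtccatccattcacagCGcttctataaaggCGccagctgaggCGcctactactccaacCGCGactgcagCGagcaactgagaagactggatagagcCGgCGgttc
Hs3st4: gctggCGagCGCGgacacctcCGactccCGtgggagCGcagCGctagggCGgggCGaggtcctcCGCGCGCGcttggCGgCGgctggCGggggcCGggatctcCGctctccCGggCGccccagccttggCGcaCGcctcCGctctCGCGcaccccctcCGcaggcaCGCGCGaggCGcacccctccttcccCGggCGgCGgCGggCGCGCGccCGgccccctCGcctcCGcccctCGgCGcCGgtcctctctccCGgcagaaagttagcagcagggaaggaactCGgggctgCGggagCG
Olfr1342: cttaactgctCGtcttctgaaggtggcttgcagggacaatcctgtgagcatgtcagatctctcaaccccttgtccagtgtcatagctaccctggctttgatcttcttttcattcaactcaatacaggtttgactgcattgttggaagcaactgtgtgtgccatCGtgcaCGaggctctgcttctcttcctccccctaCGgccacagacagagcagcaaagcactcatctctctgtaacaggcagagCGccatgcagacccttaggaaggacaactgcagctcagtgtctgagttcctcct
Jun and Fos hold 15 and 20 CG dinucleotides, Hs3st4 holds 47 and the olfactory receptor gene Olfr1342 holds 5. The median over the 17274 protein-coding genes with a promoter in the table, of 21523 such genes, was 14.

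H3 regions were mostly shorter than 1 Mb in both genotypes and covered more of the genome in KO. WT regions covered 434 Mb, 16.9% of the 2573 Mb analysed from 3 Mb onward on each chromosome, and KO regions covered 519 Mb, 20.2%. The KO to WT ratio was 1.19. Region length ranged from 130 to 10460 kb with a median of 490 kb in WT, and from 80 to 12400 kb with a median of 540 kb in KO. The added length came with long regions. Those of at least 1 Mb numbered 99 of 513 in WT and 133 of 495 in KO and made up 55.9% and 66.6% of the covered length, and those of at least 3 Mb numbered 23 and 33.

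The authors gave each region a score whose scale is not stated, and it is used here within a list only. Longer regions had higher scores, with a Spearman correlation between length and score of 0.83 over the 513 WT regions and 0.83 over the 495 KO regions, as a description. Median scores were 11.6 in WT and 11.4 in KO, each in its own list. The 5 highest scores of WT lay on chromosomes 2, 5 (2 regions), 8 and 4. The WT region with the highest score, 256, was chr2:164530001-174990000, 10460 kb long with 114 protein-coding genes including Tshz2, a zinc finger homeobox gene, and Eya2, a transcriptional coactivator of development, and KO regions covered 92.3% of it. The KO region with the highest score, 486, was chr5:113540001-124640000, 11100 kb long with 183 protein-coding genes including Med13l, a subunit of the Mediator complex, and Cux2, a homeobox gene, and WT regions covered 83.9% of it.

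The lists shared most of their bases. A total of 334 Mb lay in H3 regions of both genotypes, 76.9% of the WT bases and 64.4% of the KO bases. A further 100.2 Mb lay in WT regions alone (WT-only, 337 stretches with a median of 230 kb) and 184 Mb in KO regions alone (KO-only, 517 stretches with a median of 260 kb). Of the 513 WT regions, 391 touched a KO region by at least 1 bp (76.2%, 95% Wilson interval 72.3 to 79.7). Of the 495 KO regions, 339 touched a WT region (68.5%, interval 64.3 to 72.4). Under a reciprocal overlap of 0.5 with 1 region the shares were 42.9% and 44.4%. These intervals hold counting error alone and take each region as an independent draw.

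Regions without a counterpart were shorter and lower in score than regions with one. A longer region is more easily touched by at least 1 bp, and scores rose with length, so neither difference stands apart from length. Median length was 380 kb over the 122 untouched and 530 kb over the 391 touched WT regions, with median scores of 8.97 and 13.6. Over the 156 untouched and 339 touched KO regions it was 400 and 680 kb, with median scores of 8.57 and 14.1. Regions were joined more often in KO: 52 KO regions spanned at least 2 WT regions, with up to 9 in 1 KO region, whereas 21 WT regions spanned at least 2 KO regions. Most borders differed, and some coincided. Of the 513 WT regions, 81 started and 73 ended at the same listed coordinate as a KO region, whereas 8 started and 13 ended at that of a WT PML region. The H3 borders are listed on a coarse grid of round coordinates, so a shared border means the same grid step, not the same base.

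The difference in cover was unevenly spread over chromosomes. KO cover exceeded WT cover on 15 of 20 chromosomes. On chromosome 5 cover was 34.4% in WT and 53.0% in KO, and 0.02 Mb of its 51.3 Mb of WT cover was missing from the KO regions. On chromosome 11 it was 25.3% and 38.3%, and on chromosome 19 it was 12.6% and 21.4%. Chromosome 4 showed the opposite, with 23.5% in WT and 16.7% in KO, and held 15.9% of all WT-only bases. Cover on chromosomes 6, 12, 13 and 16 was also lower in KO, with KO to WT ratios of 0.977, 0.822, 0.988 and 0.881. The ratio over all chromosomes was 1.15 without X, 1.10 without chromosome 5 and X, and 1.14 without chromosomes 4, 5 and X.

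Chromosome X carried 5 H3 regions over 3.28 Mb in WT and 37 regions over 22.7 Mb in KO, and all WT bases on X were also in KO regions. The median score per Mb of the regions on X was 31.6 against 21.9 over all KO regions, and 16.8 against 26.0 in the WT list. The longest of the KO-only stretches on X, chrX:147740001-150420000, was 2680 kb long, and PML calls covered 99.3% of it in WT and 97.2% in KO. The KO cells are labelled Pml-null, so PML calls there are not read as a PML domain kept in KO. The next KO-only stretch on X, chrX:100370001-102960000, held Eda, the ligand ectodysplasin, and Hdac8, a histone deacetylase. Signs of sex differed between libraries. Xist, the RNA that coats the inactive X, had 19.5 FPKM in the numbered WT table and 0.0517 in the numbered KO table, and the Y-linked gene Ddx3y had 0.0384 and 7.67. In the unnumbered tables Xist had 5.89 FPKM for WT and 8.25 for KO, and Ddx3y had 21.7 and 11.4. H3K9me3 regions on Y numbered 2 in WT and 87 in KO, and PML regions 0 and 22. The other lists did not share this direction, with 7 and 2 for H3K27me3, 1 and 0 for H3.3-Flag, and 1 and 1 for H3.3-HA. The part of sex in the X difference was not tested.

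**Figure D1:**
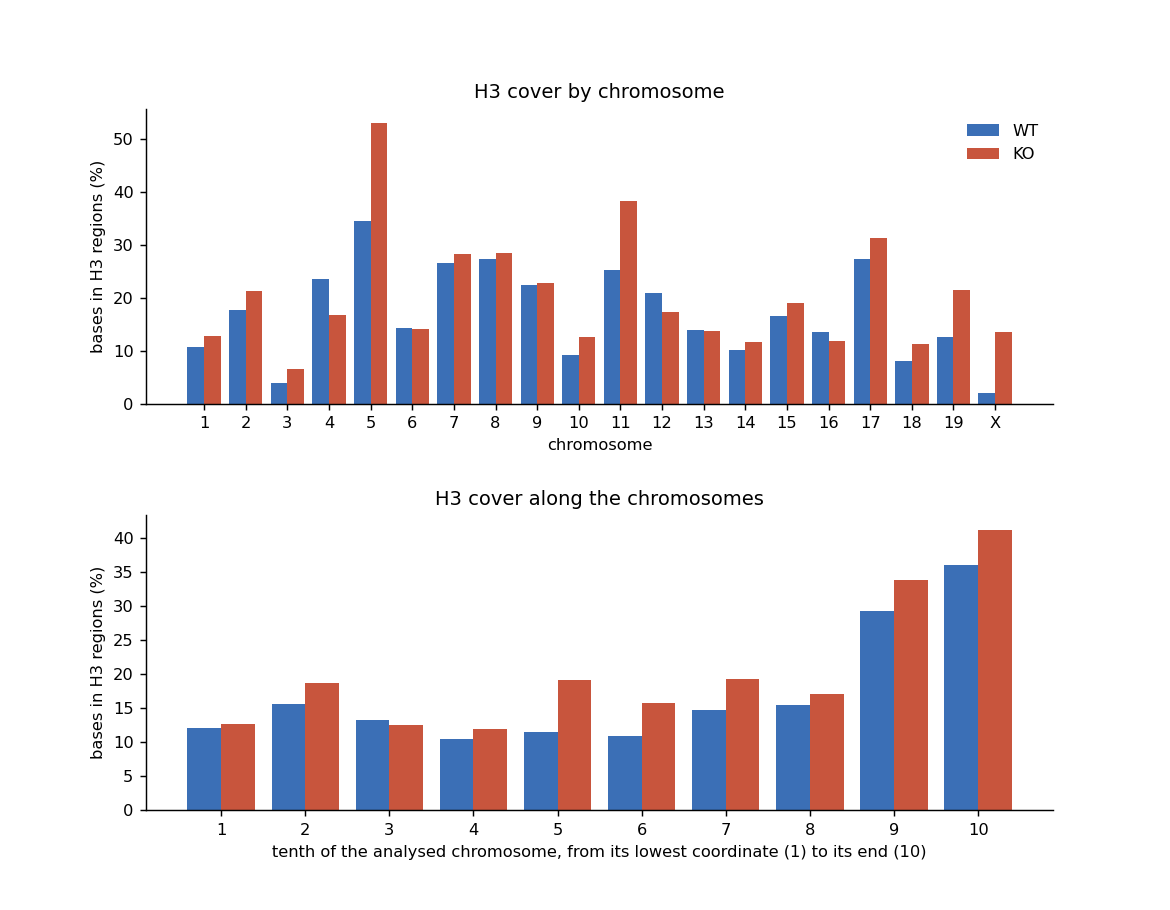
Bars give the percentage of bases inside WT (blue) and KO (red) H3 regions, by chromosome in the upper panel and by 10 equal bins of the analysed chromosome length in the lower panel, with 1 library per bar. KO bars exceed WT bars on 15 of 20 chromosomes, with 53.0% against 34.4% on chromosome 5, and cover is highest in bins 9 and 10 in both genotypes.

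H3 cover was highest toward the distal chromosome ends in both genotypes, although most H3 bases lay elsewhere. Mouse chromosomes have their centromere at the low coordinates. In the final 20% of each chromosome, WT regions covered 32.6% of bases against 12.9% of the rest, and KO regions 37.5% against 15.8%. The final 20% had the higher cover on 16 of 20 chromosomes in WT and on 17 of 20 in KO. The plot of H3 cover by chromosome and position shows the step between bins 8 and 9 of 10, from 15.4% to 29.2% in WT and from 17.0% to 33.8% in KO. Across 2563 windows of 1 Mb, which share the 2 libraries and their depth, WT and KO H3 cover correlated with a Pearson r of 0.75.

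The longest stretches called in both genotypes lay on chromosomes 8, 2, 5 and 11. The longest, chr8:116190001-126520000, spanned 10330 kb and 134 protein-coding genes, among them Cdh13, a cadherin anchored in the membrane by a lipid, and Slc35f3, a transporter gene. The second, chr2:164750001-173860000, spanned 9110 kb and 90 genes. The stretch chr5:124710001-129670000 held the Tmem132 genes b, c and d, and in it H3K9me3 calls covered 80.9% in WT and 98.7% in KO. A stretch apart from the rest, chr14:3000001-7730000, held 76 protein-coding genes, the longest of them predicted models such as Gm26650. Such models can be near copies of each other, so the place of reads there is uncertain. PML calls covered 99.8% of it in WT and 99.2% in KO, H3K9me3 calls 4.36% and 4.59%, and the KO region over it had the second highest KO score, 378.

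WT-only stretches had the lowest median length of the 3 kinds. The longest, chr7:123180001-124890000, spanned 1710 kb with Hs3st4, a heparan sulfate sulfotransferase expressed mainly in brain. PML calls covered 82.5% of it in WT. The next, chr4:103360001-104960000, held Dab1, the adaptor of reelin signalling in migrating neurons. That WT region had a score of 59.1, and WT PML calls covered 97.5% of the stretch. H3K9me3 calls covered 90.4% of it in WT and all of it in KO, and H3K27me3 calls 39.9% in WT and 96.0% in KO. Others held Xylt1, a xylosyltransferase of proteoglycan synthesis, Adcy2, an adenylyl cyclase of brain, Clstn2, a postsynaptic calsyntenin, and Tox3, a neuronal HMG-box gene. Of the 8 longest WT-only stretches, 1 had no WT PML call, chr4:140630001-141970000 with 38 genes including Spen, a transcriptional repressor. In it H3.3-Flag calls covered 28.6% in WT and 26.2% in KO.

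The longest KO-only stretch was a single KO region with no WT H3 call in it. It was chr4:92710001-96200000, 3490 kb with 14 protein-coding genes, among them Jun, a subunit of the AP-1 transcription factor, Tek, the angiopoietin receptor of endothelium, Ift74, a subunit of the intraflagellar transport complex, and Fggy, a carbohydrate kinase. Its score was 238, rank 8 of 495, and its score per Mb was 68.3. Downstream of it on chromosome 4, the KO regions chr4:99280001-99840000 and chr4:99880001-101640000 had 83.5 and 90.7 per Mb. Unlike the first, these had WT H3 calls over 80.4% and 45.5% of their length. The other 22 KO regions of the chromosome had 10.4 to 33.5 per Mb, and the 3 WT regions that touched any of these KO regions had 15.9 to 37.5 per Mb in their own list. The last of the 3 KO regions held Jak1, a kinase of cytokine receptors, and Ror1, a receptor of Wnt5a. H3K9me3 calls covered 24.3% of the longest stretch in WT and 52.8% in KO, 6.61% and 96.6% of the second region, and 27.7% and 92.8% of the last.

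**Figure D2:**
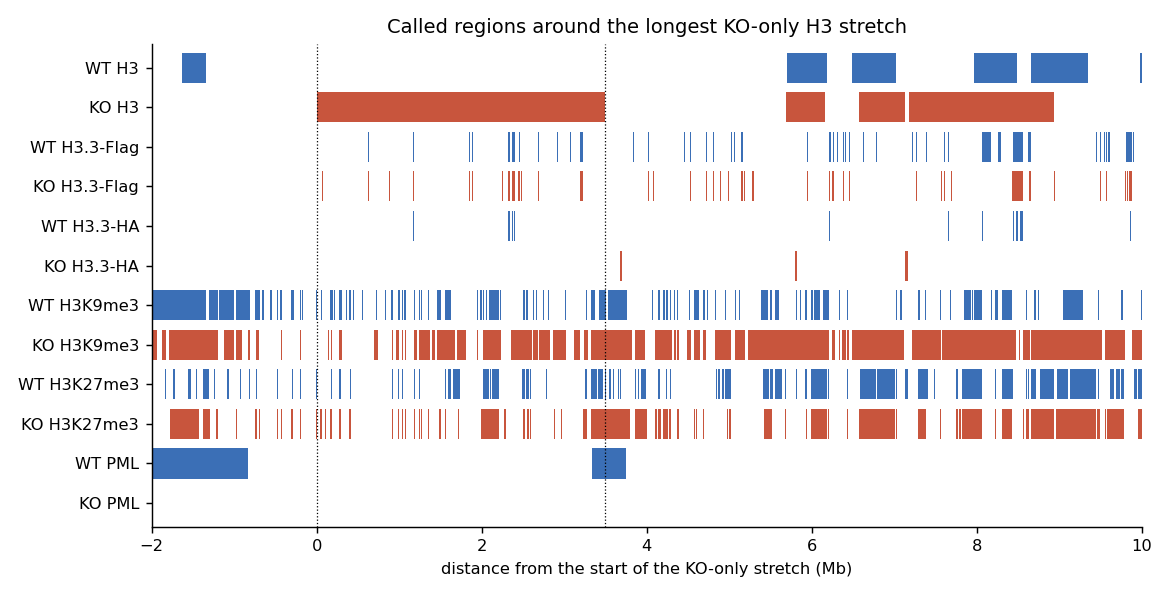
Bars mark regions called in each of the 12 ChIP libraries (WT blue, KO red) around the longest KO-only H3 stretch on chromosome 4, by distance in Mb from its start, and dotted lines mark its borders. The stretch is 1 KO H3 region of 3490 kb with no WT H3 call in it, and the KO H3K9me3 calls cover 52.8% of it against 24.3% in WT.

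In the numbered tables, 7 genes of the longest stretch reached 1 FPKM, with a median KO minus WT difference of 0.93 on the log2(FPKM + 1) scale, against 0.24 over 679 genes of chromosome 4. Jun was at 22.3 FPKM in WT and 47.7 in KO, and Plaa, a ubiquitin-binding factor, at 11.8 and 26.4. In the unnumbered tables the median of the 7 genes was 0.09, with Jun at 75.2 and 38.1. Tusc1, a small intronless gene, had 0.112 and 2.07 FPKM in the numbered and 3.47 and 8.02 in the unnumbered tables, past 2-fold in both. The 2 other regions had numbered medians of 0.57 over 3 genes and 0.82 over 5, and unnumbered medians of 0.06 over 4 genes and 0.10 over 7. Jak1 had 25.6 and 46.0 FPKM for WT and KO in the numbered pair and 51.5 and 47.9 in the unnumbered pair, whereas Ror1 had 8.44 and 0.547, and 7.35 and 4.78.

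Other long KO-only stretches lay on chromosome 5, X, 13 and 1. The stretch chr5:63950001-67350000, 3400 kb with 31 genes, held Limch1, an actomyosin regulator, and Rbm47, an RNA-binding factor, and H3.3-Flag calls covered 36.7% of it in WT and 36.0% in KO. H3K9me3 calls covered 22.6% of it in WT and 88.2% in KO. H3K9me3 cover differed over the whole of chromosome 5. In KO it was 94.3% inside the KO H3 regions and 58.4% outside, against 56.3% and 33.3% for the WT regions in WT. The stretch chr5:102050001-104580000 held Mapk10, a kinase of the JNK group, and Ptpn13, a phosphatase. The stretch chr13:51840001-54110000 held Syk, a tyrosine kinase of immune receptors, and Ror2, a Wnt5a receptor. The stretch chr1:90090001-92190000 held Hdac4, a histone deacetylase, and Col6a3, a collagen VI chain. None of the 4 stretches on chromosomes 5, 13 and 1 held a WT PML call.

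H3 regions overlapped the histone marks of their own genotype more than other bases did. H3K27me3 calls covered 60.7% of WT H3 bases against 32.7% of other bases, and 54.8% against 35.7% in KO. H3K9me3 calls covered 46.7% of WT H3 bases against 29.8%, and 58.8% of KO H3 bases against 20.9%. H3K27me3 cover was higher inside on 20 of 20 chromosomes in both genotypes, and H3K9me3 cover on 19 of 20 in WT and 20 of 20 in KO. Among single regions, 204 of 513 in WT (39.8%, interval 35.6 to 44.1) and 292 of 495 in KO (59.0%, interval 54.6 to 63.2) had H3K9me3 calls over at least 0.5 of their length. For H3K27me3 these were 390 regions in WT (interval 72.1 to 79.5%) and 279 in KO (56.4%, interval 52.0 to 60.7). The H3K9me3 share was thus higher in the KO library and the H3K27me3 share lower, with no replicate to set this against. Without chromosomes 4, 5 and X, H3K9me3 calls covered 45.2% of WT and 49.7% of KO H3 bases.

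Bases with both marks were concentrated in H3 regions. They made up 30.8% of WT H3 bases against 12.9% of other bases, and 45.7% of KO H3 bases against 15.6%. Of all bases with both marks in KO, 42.6% lay in H3 regions, which covered 20.2% of the genome. Of bases with H3K27me3 alone, H3 regions held 23.5% in WT and 10.2% in KO. The order was the opposite for bases with H3K9me3 alone, of which WT regions held 16.0% and KO regions 38.1%.

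H3.3 calls differed between the tags. H3.3-Flag calls covered 8.12% of H3 bases and 11.7% of other bases in WT, with the inside higher on 1 of 20 chromosomes. In KO they covered 15.6% inside and 10.9% outside, with the inside higher on 18 of 20 chromosomes. H3.3-HA calls covered 3.91% inside and 2.65% outside in WT, and 39.4% inside and 8.30% outside in KO. The KO H3.3-HA regions stood apart from the other H3.3 lists, with 1759 regions of a median 62 kb and a median signal of 1.48, against 6730 regions of a median 5 kb and a median signal of 16 in WT. With the authors' signal at 3 or more, H3.3-HA calls covered 2.92% of KO H3 bases and 1.02% of other bases, and 3.85% and 2.56% in WT. The KO cover was then the lower one, but with such unlike median signals the same minimum need not cut both lists alike. PML calls covered 30.3% of WT H3 bases and 18.0% of other bases, yet 330 of the 513 WT H3 regions held no PML call. In KO, 488 of 495 H3 regions held none.

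**Figure D3:**
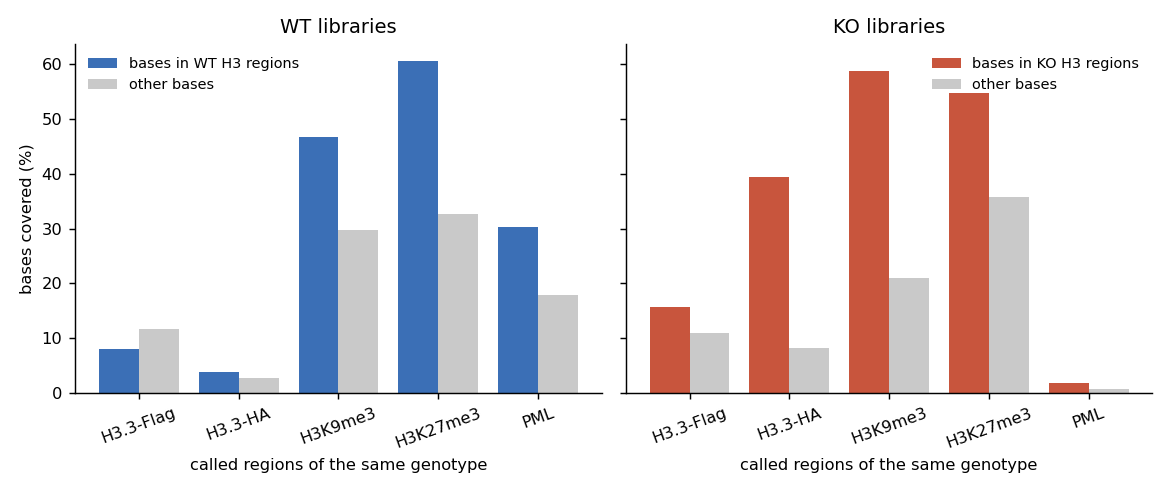
Bars give the percentage of bases covered by called regions of each of 5 targets inside the H3 regions of the same genotype (coloured) and in the remaining bases (grey), for WT in the left panel and KO in the right. The KO H3K9me3 pair is the widest in percentage points, at 58.8% against 20.9%, and the KO H3.3-HA pair the widest as a ratio, at 39.4% against 8.30%, and the WT H3.3-Flag pair is the reverse of the KO one.

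The 3 kinds of H3 stretch carried different marks in cells of either genotype. KO-only bases were the richest in H3.3-Flag, at 21.5% in the WT library and 24.4% in the KO library, against 9.37% and 10.8% in shared bases and 3.94% and 4.04% in WT-only bases. The high Flag cover of KO-only bases was thus present in the WT library, which had no H3 call there. WT-only bases were the richest in WT PML calls, at 48.5%, against 24.8% of shared, 5.09% of KO-only and 19.2% of bases in neither. H3K9me3 cover of KO-only bases was 22.2% in WT and 42.5% in KO, and that of shared bases 43.2% and 67.8%. In bases outside all H3 regions it was 30.5% in WT and 18.7% in KO, but 10.2% and 18.6% with calls of signal 3 or more. The median H3K9me3 signal was 3.83 in WT and 8.48 in KO, on a scale not stated. The same minimum need not cut both lists alike, so the turned order is not a like comparison. H3K27me3 cover of KO-only bases was 48.7% in WT and 38.1% in KO, and that of WT-only bases 58.0% and 74.0%.

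**Figure D4:**
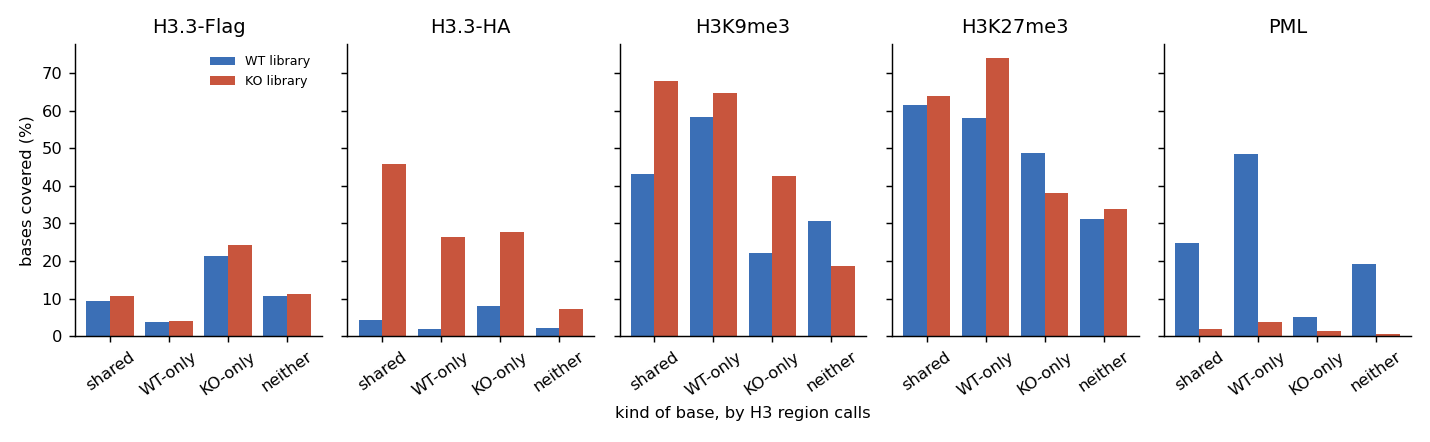
Bars give the percentage of bases covered by called regions of 5 targets in WT (blue) and KO (red) libraries, for bases in H3 regions of both genotypes (shared), of WT alone, of KO alone and of neither. H3.3-Flag cover is highest in KO-only bases in both libraries, and WT PML cover is highest in WT-only bases at 48.5%.

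H3 regions were rich in genes, and the KO-only stretches most of all. A gene was counted in a set when at least 0.5 of its length lay in it. Of 21523 protein-coding genes, 5128 lay in WT H3 regions (23.8%) and 7671 in KO H3 regions (35.6%). By kind of stretch, 4312 lay in shared (20.0%), 809 in WT-only (3.76%) and 3354 in KO-only stretches (15.6%). Gene density was 18.2 per Mb in KO-only, 12.9 in shared, 8.08 in WT-only and 6.67 in bases of neither, against 8.37 over all. Regions without any protein-coding gene numbered 17 of 513 in WT and 6 of 495 in KO. The WT region with most genes, 153, was chr7:43590001-46780000 with the kallikrein protease gene Klk1b21 and its relatives. The KO region with most genes, 227, was chr2:24720001-34180000 with Vav2, a guanine nucleotide exchange factor, and 4220 kb of its 9460 kb lay in no WT region.

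Promoter letters followed these kinds only in part. The median number of CG dinucleotides in the 300 bases was 17 in shared, 18 in KO-only, 7 in WT-only and 11 in genes of neither. Among genes at 1 FPKM or more in both pairs of tables the medians were 23, 22, 22 and 21 for shared, KO-only, WT-only and neither. Among genes below 1 FPKM in both pairs they were 7, 7, 4 and 3. Beside these medians Hs3st4, with 47, is far from typical of WT-only genes, and Olfr1342, with 5, is close to them.

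Of 10 genes of the AP-1 family, immediate early transcription factors of the basic leucine zipper class, 0 lay in WT H3 regions and 7 in KO H3 regions, all KO-only, against 15.6% of all genes. They were Jun, Jund, Fos, Fosb, Fosl1, Fosl2 and Batf. Fos and Batf shared 1 region, chr12:85380001-85800000, so the 7 genes stood in 6 regions on 6 chromosomes. The others lay in chr8:69780001-70970000 (Jund), chr7:18860001-19980000 (Fosb), chr19:4560001-5790000 (Fosl1) and chr5:32060001-32440000 (Fosl2), besides the region of Jun. The nearest WT region lay 258 kb from Jund, 633 kb from Fos and 3358 kb from Jun. Without chromosomes 4, 5 and X the count was 5 of 8 genes. H3.3-Flag calls covered all of Jun, Jund, Fos, Fosl1 and Fosl2 in both genotypes, and also Junb and Atf3, which lay in no H3 region. Among all 3354 KO-only genes, 29.1% in WT and 31.6% in KO had Flag calls over at least 0.5 of their length. Among the 13036 genes of neither these shares were 22.0% and 22.7%. Flag cover in WT and KO was 98.4% and 100% for Fosb, 44.7% and 0% for Batf, and 0% and 15.1% for Batf3. H3.3-HA calls covered 100% of Jun, 32.8% of Fos and 98.4% of Fosb in WT and none of them in KO. They covered all of Jund, Fosl1, Fosl2, Junb and Atf3 in both, and none of Batf and Batf3. HA calls lay over at least 0.5 of the length of 14.5% of all KO-only genes in WT and 42.1% in KO. For genes of neither these shares were 7.15% and 16.6%. H3K27me3 calls covered all of Fos in WT and none of it in KO.

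AP-1 members differed in the direction of their RNA. Fos had 18.5 FPKM for WT and 8.29 for KO in the numbered tables, and 440.1 and 47.1 in the unnumbered tables. Fosb was at 7.24 and 1.88, and at 103 and 11.9. Both were lower in KO in each pair and past 2-fold on the log2(FPKM + 1) scale, with differences of -1.07 and -3.20 for Fos and -1.52 and -3.02 for Fosb. Fosl2 was at 22.8 and 38.5 in the numbered tables and at 40.6 and 63.6 in the unnumbered tables. Jund was at 26.7 and 29.1, and at 46.4 and 26.5. Of the 6 KO-only members at 1 FPKM or more in the numbered tables, 2 passed 2-fold upward in KO and 2 downward, as 6.38% and 15.7% of all genes did. Of 5 in the unnumbered tables, 0 passed it upward and 2 downward, as 1.49% and 3.72% of all genes did.

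Of 19 genes of PML bodies and of H3.3 deposition, 5 lay in shared stretches, 3 in KO-only stretches and 11 in neither, shares near those of all genes (20.0% shared and 15.6% KO-only). The KO-only genes were Pml itself, H3f3a, one of the H3.3 genes, and Morc3, a CW-type zinc finger ATPase of PML bodies. The KO region with Pml, chr9:57920001-58550000, had 19.1 score per Mb, and the nearest WT region lay 1357 kb from the gene. The other H3.3 gene, H3f3b, lay in regions of both genotypes. H3f3a had 203 and 264 FPKM for WT and KO in the numbered pair and 311 and 271 in the unnumbered pair, and H3f3b at 288 and 301, and 271 and 202. Pml RNA was listed at 15.0 and 10.2 FPKM, and at 7.62 and 4.22. Which part of the gene the null allele removes is not given in the sources used here, so these gene totals do not check the label. The H3.3 chaperone genes Daxx, Atrx and Hira lay in no H3 region of either genotype, nor did Ubn2 and Asf1a of the same list. Cabin1 and Asf1b were covered in full by H3 regions of both genotypes, and Ubn1 to 45.0% in both.

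Among 10 genes of replication-coupled H3 assembly, 3 lay in WT and 5 in KO H3 regions, where 23.8% and 35.6% of all genes lay. The KO-only members were Chaf1a and Chaf1b, the large and middle subunits of the chromatin assembly factor CAF-1, and Mcm2, a helicase subunit that binds H3. Chaf1b shared its KO region, chr16:93720001-94310000, with Morc3. Chaf1b had 63.4 and 17.5 FPKM for WT and KO in the numbered pair, and 6.88 and 3.93 in the unnumbered pair. Chaf1a was at 40.2 and 32.7, and at 6.20 and 5.27.

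Gene clusters and families are read against the shares of all genes, 23.8% in WT regions, 35.6% in KO regions, 20.0% shared, 3.76% WT-only and 15.6% KO-only. Of 39 Hox genes, the homeobox genes of body patterning, the 9 genes of the Hoxc cluster lay in shared stretches and 8 Hoxb genes in 1 KO region, chr11:94340001-96330000. Of 49 keratin genes, 36 lay in WT and 35 in KO regions, 34 of them shared. Of 84 cytosolic ribosomal protein genes, 22 lay in WT (26.2%) and 41 in KO regions (48.8%), with 20 KO-only. Of 400 genes named Zfp, which encode zinc finger factors, 60 lay in WT (15.0%) and 121 in KO regions (30.25%), with 68 KO-only. The Zfp shares were near or below those of all genes. Collagen genes were in WT regions in 17 of 44 cases and in KO regions in 20. Of 31 fibroblast matrix genes, 6 were shared and 6 KO-only, the latter Col1a1, Col6a1, Col6a3, Fbln1, Loxl1 and Bgn. Col1a1, the main chain of collagen I, had 3354 and 990.2 FPKM for WT and KO in the numbered pair, and 2527 and 1794 in the unnumbered pair.

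Large receptor families lay mainly or wholly outside H3 regions. None of 352 vomeronasal receptor genes, 57 clustered protocadherin genes and 35 taste receptor genes lay in an H3 region of either genotype. Of 1109 olfactory receptor genes, 67 lay in WT and 34 in KO regions, 46 WT-only and 13 KO-only. The WT-only members, Olfr1342 among them, lay on chromosomes 4, 7 and 11. Of 67 replication histone genes, 2 lay in H3 regions of each genotype. Of 90 neuronal adhesion and synapse genes, 18 lay in WT regions (20.0%) and 13 in KO regions (14.4%), against 23.8% and 35.6% of all genes. Of these genes 11 were shared, 7 WT-only and 2 KO-only. The WT-only ones included Dab1, the glutamate receptor genes Grin2b and Grid1, and Cntnap4. Lists of 16 Polycomb genes and 11 genes of H3K9 methylation and HP1 had 4 and 2 members in WT regions and 4 and 3 in KO regions, and 74 cytochrome P450 genes had 22 and 24. Of 134 serpin and defensin genes, 28 lay in WT and 20 in KO regions, with 12 WT-only.

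The percentage of genes at 1 FPKM or more was highest in KO-only stretches in all 4 tables. In the numbered WT table, 65.1% of 3144 KO-only genes were at 1 FPKM or more (interval 63.5 to 66.8), against 50.6% of 3998 shared genes (49.1 to 52.1), 49.1% of 11962 genes in neither (48.2 to 50.0) and 29.2% of 703 WT-only genes (25.9 to 32.6). The intervals take each gene as an independent draw, although many genes share a stretch. In the numbered KO table the shares were 64.9%, 51.0%, 50.5% and 31.9% in the same order. In the unnumbered tables they were 68.4%, 54.6%, 54.4% and 35.3% in WT and 67.4%, 53.1%, 53.2% and 33.1% in KO. In bulk samples, fewer cells of a type and less RNA per cell cannot be told apart.

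Median RNA differences between genotypes were within 0.19 of 0 over each kind of stretch. In the numbered tables the median KO minus WT difference was -0.18 over 2138 shared genes, -0.19 over 2124 KO-only genes, 0.10 over 233 WT-only genes and 0.18 over 6265 genes of neither, with 0.06 over all 10768. In the unnumbered tables the medians were 0.00 (-0.0049), 0.01, 0.00 (0.0027) and 0.02, with 0.01 over all 11308. Gene length moved with the numbered values. Median gene bodies were 18.3 kb in shared, 17.0 kb in KO-only, 22.4 kb in WT-only and 29.2 kb in neither. Among the shortest genes, when all were put in 3 equal groups by body length, the numbered medians were -0.79 in shared, -0.71 in KO-only, -0.49 in WT-only and -0.27 in neither, and among the longest they were 0.11, 0.14, 0.16 and 0.28. The part of gene length in the numbered differences was not tested.

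**Figure D5:**
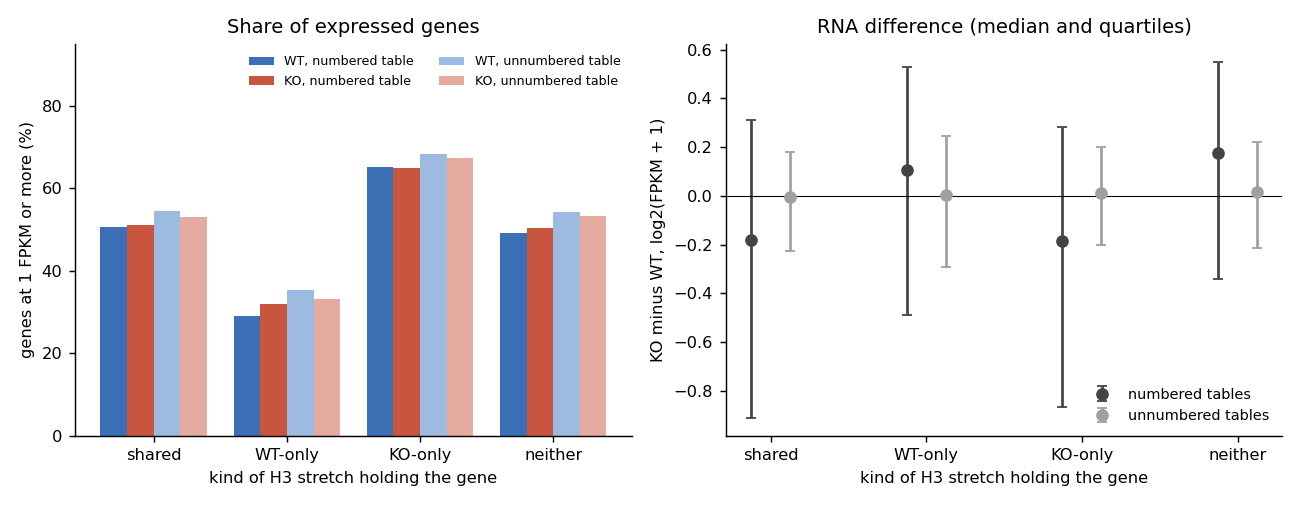
The left panel gives the percentage of genes at 1 FPKM or more in each of the 4 RNA tables, by the kind of H3 stretch that holds at least 0.5 of the gene. The right panel gives the median and quartiles over genes of the KO minus WT difference in log2(FPKM + 1), for the numbered and the unnumbered tables, where the unnumbered medians are all near 0.

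Among all genes used in the numbered pair, 6.38% were past 2-fold higher in KO and 15.7% lower. Among KO-only genes 76 were higher and 458 lower, 3.58% and 21.6%, and among shared genes 102 and 487, 4.77% and 22.8%. WT-only genes had 26 higher and 30 lower, 11.2% and 12.9%. In the unnumbered tables the KO-only counts were 28 and 58, 1.28% and 2.65%, and those of WT-only genes 3 and 20, 1.19% and 7.91%, where all genes had 1.49% and 3.72%. With 1 table per genotype, none of these counts carries a test.

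The gene of highest mean RNA level in KO-only stretches was Rplp2, a ribosomal stalk protein gene. It had 21961 and 1181 FPKM for WT and KO in the numbered pair, and 1284 and 1151 in the unnumbered pair. Rpl38 and Rpl36, in shared stretches, were at 13312 and 1695, and at 15146 and 743, in the numbered tables. Of the 20 KO-only ribosomal protein genes 15 were at least 2-fold lower in KO in the numbered tables, and so were 40 of 57 elsewhere, against 15.7% of all genes. For the unnumbered pair, none of the 20 and 1 of 58 were, against 3.72% of all genes. Actb, cytoplasmic actin, was KO-only and at 3799 and 3741 FPKM, and at 3914 and 5787. Lgals1, a galectin, was KO-only and at 13199 and 2438, and at 2098 and 2293. In WT-only stretches the highest genes were Elob, elongin B, at 2428 and 403, and at 469 and 542, and Gnas, the stimulatory G protein subunit, at 524 and 544, and at 624 and 655.

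Of 61 genes chosen by rule for their RNA level or difference, 6 passed 2-fold the same way in both pairs of tables, 1 higher and 5 lower in KO, and 8 passed it in opposite ways. The higher gene among these 61 was Fv1, a retroviral restriction gene in a WT-only stretch, at 0.843 and 4.39 FPKM and at 3.66 and 8.85. Lower in both was Nnmt, nicotinamide N-methyltransferase, in a WT-only stretch at 112 and 2.05 FPKM and at 21.7 and 1.86. Clec11a, a stem cell growth factor in a shared stretch, was lower in both at 22.3 and 0.346 and at 39.4 and 2.67. Ccl27a, a chemokine, was WT-only, and Fos and Fosb, KO-only, made up the rest. Outside that rule, Tusc1 was past 2-fold higher in both pairs and Bst2 past it in opposite ways.

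The largest differences of the unnumbered pair in shared stretches included Tyrobp, an adaptor of myeloid receptors, at 18.1 FPKM in WT and listed at 0 in KO, and the complement genes C1qb, at 15.2 and 0.235, and C1qc, at 16.8 and 0.385. All 3 were listed at 0 in both numbered tables. They are macrophage genes, and Tyrobp and C1qb are themselves among the 7 macrophage markers, which summed to 156 FPKM in unnumbered WT and 11.4 in unnumbered KO. The part of cell makeup was not tested. In KO-only stretches, Egfl6, a matrix protein gene on X, had 26.95 and 0.186 FPKM for WT and KO in the unnumbered pair and at most 0.0120 in the numbered pair. Igf2, a fetal growth factor in a shared stretch, was at 0.183 and 35.1 FPKM in the numbered tables and at 390.4 and 372 in the unnumbered tables. Limch1, of the KO-only stretch on chromosome 5, was at 26.1 and 0.156, and at 7.15 and 6.04.

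Interferon-stimulated genes differed in opposite directions in the 2 pairs, in KO-only stretches and elsewhere. In the numbered tables all 5 KO-only members at 1 FPKM or more were at least 2-fold higher in KO, and so were 18 of 19 others, against 6.38% of all genes. In the unnumbered pair, of the 5 KO-only members 0 were higher and 3 lower, with 0 higher and 7 lower among 15 others, against 1.49% and 3.72% of all genes. Bst2, which tethers virions, had 18.9 and 91.7 FPKM for WT and KO in the numbered pair, and 26.98 and 8.85 in the unnumbered pair.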

How the data were processed

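ChIP-seq region lists of 12 libraries and 4 RNA tables from MEFs were used. Nothing in the labels says that the numbered RNA samples came from separate cultures. The submitters' processing notes name the mm10 build and the tools Bowtie 1.0.0, Cuffdiff 2.2.1, Cufflinks 2.2.1 and TopHat2 2.0.8b, without their order. The region caller is not given in the sources used here. In the deposited files, H3 and PML regions carry 1 score each and regions of the other targets a signal, both on scales the authors do not state. RNA values are FPKM as computed and deposited by the authors. Lines naming several genes (267 or 271 per table) were left out.

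Cover was computed in 1 kb bins of chromosomes 1 to 19 and X from base 3000000, since 4 of the other lists held regions that start before it and the H3 lists held none. Regions were compared by overlap of at least 1 bp. Genes were those of RefSeq on GRCm38.p6, and 99.5% of 22593 RNA symbols matched. An RNA difference is log2(FPKM + 1) in KO minus that in WT, over genes at 1 FPKM or more in either genotype, and understates the fold of low genes. Shares carry 95% Wilson intervals, which take regions or genes as independent draws. With 1 library per group no significance test was possible. The interval arithmetic was tested on simulated regions. Python 3.11.15, pandas 2.3.3, numpy 2.4.6, scipy 1.17.1 and matplotlib 3.10.9 were used.

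Named stretches are the 8 longest of each kind, and named regions the 5 with the highest score, the most genes or the most bases called in 1 genotype. Up to 4 genes with the longest bodies were named in each, besides members of the gene lists. Genes named for RNA are, per kind of stretch, the 6 of highest mean FPKM and, in each pair of tables, the 4 largest differences past 2-fold each way, 3 of which are not reported here. The other chromosome 4 regions and their genes were chosen after their values were seen. Members and gene lists were chosen with earlier results of these data known. Alternatives varied the chromosomes, the first 3 Mb, region length, score and signal minimums, the overlap rule, the FPKM minimum, the pseudocount and gene assignment, the last with gene starts from the RefSeq promoter table.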

Additional observations from a re-analysis of the deposited data

Results flagged for a closer look

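Of the 61 genes chosen by rule for their RNA, 8 passed 2-fold in opposite directions in the numbered and unnumbered pairs of tables, and the difference between the pairs was not tested. Values are KO minus WT of log2(FPKM + 1), numbered first. In shared stretches, Acta1, skeletal actin, had -3.23 and 1.97. In WT-only stretches, Anxa8 had -1.15 and 2.48, Mfap2, a microfibril protein gene, 2.95 and -1.27, and Usp18, an interferon-stimulated gene, 3.74 and -1.23. In KO-only stretches, the chemokine gene Cxcl10 had 4.65 and -1.63, Des, desmin, 3.97 and -1.90, and Dlk1, an imprinted gene, 5.42 and -1.99. Mgll, a lipase gene in a KO-only stretch, had -3.24 and 2.40. Outside that rule, Bst2, an interferon-stimulated gene in a KO-only stretch, had 2.22 and -1.51. The tables also differed in their macrophage and sex-linked genes, whose part in these values was not tested.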

How the results depend on the processing

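Of 99 values under other settings, 24 lay beyond a limit set around the main value. So did 4 of 21 values without chromosomes 4, 5 and X, a setting chosen after seeing the data. For covered length and shares of bases the limit was a Wilson interval with the number of regions as the count. RNA medians had an interval from the ordered gene values, and gene counts a factor of 1.5. A value within its limit can still differ, as the KO to WT length ratio did, at 1.29 for regions of at least 500 kb against 1.19. With 1 library per group none of these values carries a test. The sign changed only for unnumbered medians near 0, from -0.0049 to 0.0093 for shared genes at 5 FPKM or more and from 0.0027 to -0.0062 for WT-only genes without chromosomes 4, 5 and X. The share of WT regions touched in KO, 76.2%, was 71.9% with at least 0.5 of the region covered, 42.9% with reciprocal overlap and 71.6% among regions at or above the median score. The KO share, 68.5%, was 58.0%, 44.4% and 62.1% in that order, 72.9% on autosomes, 74.0% on chromosomes 10 to 19 and 73.0% without chromosomes 4, 5 and X. On chromosomes 10 to 19 alone, H3K9me3 covered 41.2% of WT and 51.3% of KO H3 bases, KO H3.3-HA 55.3%, KO H3K27me3 48.6% and KO PML 3.45%. With a signal of at least 3, WT H3K9me3 covered 20.8% and KO H3.3-HA 2.92%. Without chromosomes 4, 5 and X, KO H3.3-HA covered 47.5% and KO H3K9me3 49.7%. WT PML covered 34.4% of WT H3 regions at or above the median score. The numbered RNA medians of shared, KO-only and WT-only genes were 0 without an FPKM minimum. At 5 FPKM or more, the numbered medians were -0.29 for shared and -0.26 for KO-only genes, and the unnumbered medians 0.0300 for KO-only and 0.0554 for WT-only genes. Without chromosomes 4, 5 and X the numbered KO-only median was -0.25. The cause was not tested. Depth is unknown, so a base without a call may be one that was not detectable.

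No paired analysis was possible because the deposited RNA table of each genotype merges its numbered samples, and each ChIP target had 1 library per genotype.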

Other observations

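Genes that do not encode proteins also lay unevenly over H3 stretches. MicroRNA genes had a density of 1.19 per Mb in KO-only stretches, 0.793 in shared and 0.29 in WT-only stretches, against 0.477 over all bases, with 219, 265 and 29 genes. Long noncoding RNA genes had 8.80 per Mb in shared, 8.42 in KO-only and 5.86 in WT-only stretches, against 4.90 over all. Pseudogenes had the reverse order, with 4.92 per Mb in WT-only, 4.12 in KO-only and 2.68 in shared stretches, against 3.79 over all. Transfer RNA genes numbered 70 in shared, 24 in KO-only and 2 in WT-only stretches of 403 in all. Their densities were 0.209, 0.130 and 0.020 per Mb in that order, against 0.157 over all.

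Gene bodies repeated the marks of their stretches. H3K27me3 calls covered at least 0.5 of 34.7% of KO-only genes in WT and of 27.1% in KO, and of 52.3% and 55.1% of WT-only genes. H3K9me3 calls covered at least 0.5 of 10.2% of KO-only genes in WT and of 28.0% in KO, and of 17.7% and 47.2% of shared genes.

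KO H3.3-HA cover inside H3 regions ranged widely, from 1.78% on X to 92.8% on chromosome 15.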
